A study of Bos taurus and Bos indicus with 3 samples.

Results

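The loci described here are the gene models of small noncoding RNAs in leukocyte mRNA-Seq libraries of 3 cattle breeds, Holstein, Jersey and Cholistani. A model was taken when it lay outside the mitochondrial genome and its only name was that of a spliceosomal or other U RNA (a U and a number), 5S or 5.8S ribosomal RNA (rRNA), 7SK RNA, a Y RNA, an RNase P or RNase MRP RNA, a small nucleolar RNA (snoRNA), a small Cajal body RNA (scaRNA) or a microRNA (miRNA). The names alone decided membership, so models with and without an expression estimate were both counted. This gave 2890 models with 728 distinct names among the 25968 models of the deposited table. Of these, 139 had a value above 0 in at least 1 library and 2751 were listed at 0 in all 3. The rule also allowed the name Metazoa_SRP, which 0 models carried, and it left out 29 models that joined a small RNA name to other names.

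Small noncoding RNAs work as RNA and are not translated. The small nuclear RNAs (snRNAs) form the spliceosome with proteins, box C/D and box H/ACA snoRNAs guide methylation and pseudouridylation of rRNA, scaRNAs do the same for snRNAs, and miRNAs repress mRNAs. Most are made by RNA polymerase II or III or cut out of introns, and as a rule the mature forms carry no poly(A) tail. Many snRNA, 7SK, Y RNA and 5S rRNA genes have large numbers of truncated copies spread through mammalian genomes.

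Each breed was represented by 1 library, made from tail vein blood pooled from 40 Holstein, 7 Jersey or 45 Cholistani cows. The Holstein and Jersey cows, both of the taurine type, came from separate herds in Wisconsin and the indicine Cholistani cows from a farm in Pakistan, and Cholistani RNA alone was shipped in a dry storage matrix. Breed, herd, number of cows pooled and handling therefore cannot be told apart. Polyadenylated RNA was captured on oligo dT beads in all 3 cases, and fragments were size selected before sequencing.

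Values are FPKM (fragments per kilobase of exon, scaled by library depth), which the authors estimated with Cufflinks and upper-quartile normalized, so that their sum may differ between libraries. The number of fragments behind a value is unknown, so no interval or lower limit was computed. With 1 library per breed there is no replicate, no test was possible, and models are described as higher or lower in one library than in another. A detected model had an FPKM above 0, and a model at 0 is given as listed at 0, with no ratio of its own, but it enters the counts and medians that use FPKM + 1. The FPKM sum over all models was 5949770 for Holstein, 6288100 for Jersey and 9525770 for Cholistani, so the Cholistani scale was the largest. Of 23 blood cell marker genes, 12 were found by name, and 11 of them in Holstein and all 12 in Jersey and Cholistani were above 0. Their median was 739, 711 and 1333 FPKM in the Holstein, Jersey and Cholistani libraries, the order kept for every set of 3 values below, and their summed level was 12448, 13769 and 29968 FPKM. The T cell genes CD3E, CD3D and CD3G had 2041, 2127 and 6016, 943, 891 and 1444, and 1016, 1072 and 1280 FPKM. The neutrophil gene CXCR2 had 33.5, 7.62 and 598, the platelet gene PPBP 821, 939 and 621, and the red cell gene HBA 0, 11.5 and 69.3. Of the 12 markers 11 were higher in Cholistani than in Holstein, and 8 after rescaling to equal FPKM sums. The part of cell mixture in the values below was not tested, and in bulk RNA fewer cells of a type and less RNA per cell cannot be told apart.

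Few small RNA models were detected, and more of them in Jersey than in the other libraries. Holstein had 89 members above 0 (3.08%, against 51.6% of all models), Jersey 133 (4.60%, against 53.1%) and Cholistani 73 (2.53%, against 52.6%). Counted over the 3 libraries together, the share was 4.81% of members and 58.9% of all models. The full set held transcripts that the authors assembled from these same reads, so part of its detected share was fixed in advance. The 139 members detected were 60 in all 3 libraries, 26 in Holstein and Jersey only and 10 in Jersey and Cholistani only. A further 37 were detected in Jersey alone, 3 in Holstein alone and 3 in Cholistani alone. Over all 15286 detected models the same counts, in this order, were 12204, 685, 334, 560, 375 and 983. Members took 0.476% of the Holstein FPKM sum, 2.11% of the Jersey sum and 0.318% of the Cholistani sum. Where a member was detected, the median was 148, 233 and 227 FPKM in the Holstein, Jersey and Cholistani libraries, beside 91.6, 89.6 and 93.8 FPKM over all detected models, and how many fragments lie behind such values in short models is unknown.

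Detection differed widely between RNA classes. The scaRNAs had 11 of 29 models above 0 (37.9%), RNase P and MRP RNA 2 of 5, Y RNA 3 of 16, box H/ACA snoRNAs 37 of 385 (9.61%) and box C/D snoRNAs 24 of 297 (8.08%). Among the major spliceosomal snRNAs 37 of 1074 were above 0 (3.45%), and the minor snRNAs, which serve a rare class of introns, had 3 of 42. 7SK RNA, which holds back the elongation factor P-TEFb, had 6 of 109. A further 72 models with sno names were not sorted by class, and 9 of them were above 0. Some of these may be scaRNAs, which were counted only from names beginning SCARNA. The lowest shares were those of 5S and 5.8S rRNA, with 5 of 341 models, miRNA, with 2 of 509, and U7, the snRNA of histone mRNA processing, with 0 of 11. Of 888 U6 models, the largest family, 4 were above 0 in any library, whereas U1 had 17 of 70 and U2 had 10 of 59. The authors discarded reads that aligned to more than a set number of places. The part of this filter in the low shares of families with many copies was not tested.

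**Figure D1:**
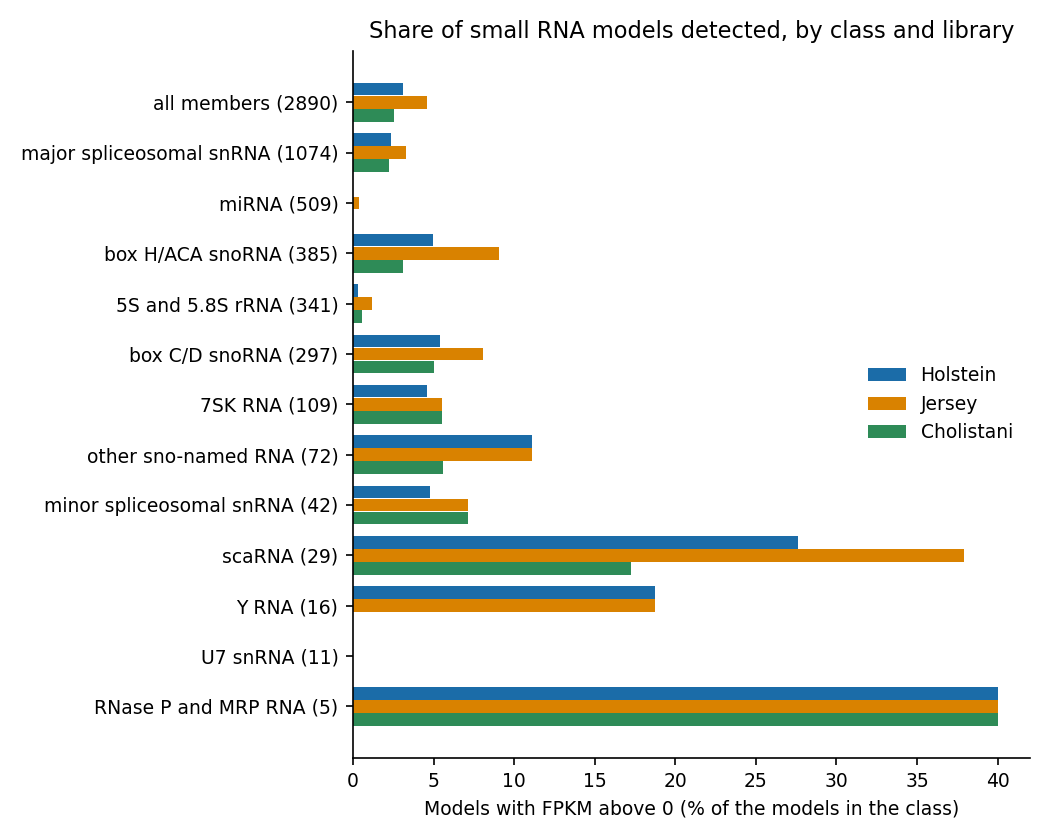
The horizontal axis gives the percentage of models above 0 FPKM, with 1 bar per library for each RNA class, and the number of models in parentheses. Jersey has the longest or an equally long bar in every class with any bar, and no Cholistani bar appears for the Y RNAs.

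Detection also differed with the length of the model. For 1785 members whose listed span was under 500 bases and was shared with no other model, the median span was 107 bases. The 81 detected among them had a median span of 143 bases, against 107 for the 1704 at 0. Of the 556 members with spans up to 100 bases, 7 were above 0, as were 10 of the 777 with 101 to 120 bases, 22 of the 233 with 121 to 140 bases, 31 of the 119 with 141 to 200 bases and 11 of the 100 with 201 to 499 bases. The share thus went from 1.26% in the shortest class to 26.1% at 141 to 200 bases and was 11% in the longest. Length went together with RNA family. The 16 detected U1 models on unshared spans were 143 to 165 bases long, and all 9 such U2 models 191 bases. The 591 unshared U6 models had quartiles of 104 and 107 bases, and the 235 unshared 5S models 108 and 120. Length and family therefore cannot be told apart in these shares. Other models of the same spans were detected more often in every length class. The share was 13.1% of 343 models up to 100 bases and 76.1% of 842 models of 201 to 499 bases. These other models may include transcripts assembled from the same reads, so part of their detected share may have been fixed in advance.

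The libraries also differed in the lengths detected. The 50 unshared members above 0 in Cholistani had a median span of 164 bases, the 54 in Holstein 162.5 bases and the 76 in Jersey 143 bases. Among models up to 100 bases Cholistani had 1 above 0, a scaRNA, against 7 in Holstein and 6 in Jersey. From 101 to 120 bases Cholistani had 0, Holstein 2 and Jersey 10. The 29 members detected in Jersey and listed at 0 in Cholistani had a median span of 119 bases, against 164 for the 47 detected in both. Within some families the detected copies were the longer ones. All 16 detected U1 models with an unshared span were among the 53 longer than 140 bases, all 9 such U2 models among the 19 longer than 180 bases, and all 4 such 7SK models among the 38 longer than 300 bases. Only 2 unshared U1 models were at or under 140 bases, so that split is nearly empty. Other families showed no such difference, as detected U3 models had a median of 182 bases against 201 for those at 0, U5 116 against 116 and U6 107 against 107. These limits were chosen after the spans were seen. The part of fragment size selection in detection was not tested.

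**Figure D2:**
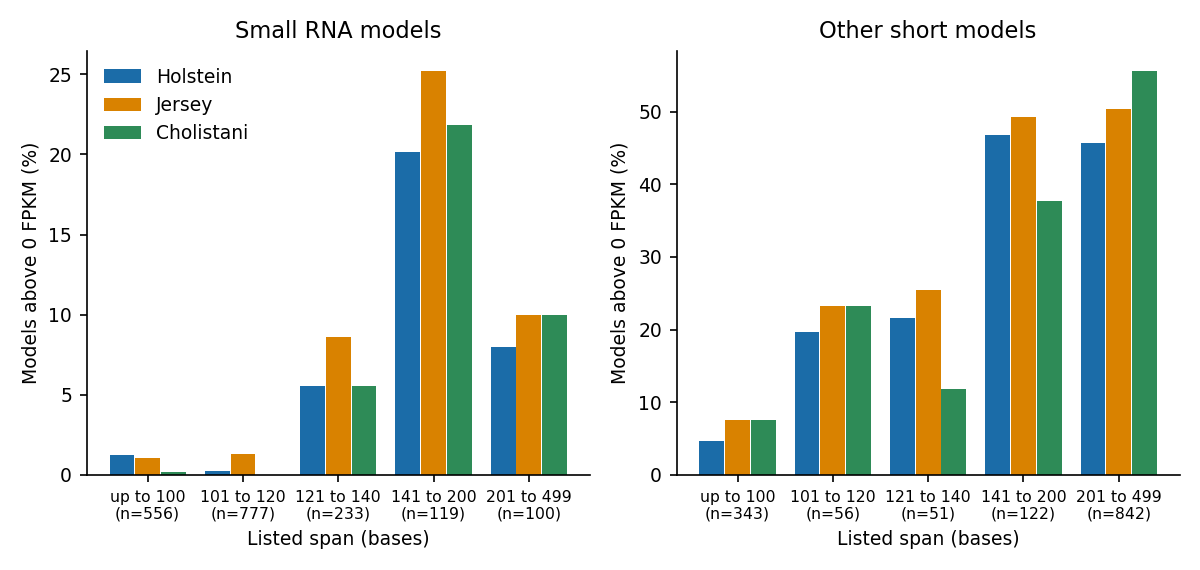
Bars give the percentage of models above 0 FPKM in each library by listed span in bases, for small RNA models (left) and for other models (right), and the vertical scales differ. Small RNA bars are highest at 141 to 200 bases and near 0 up to 120 bases, where the right panel has bars of up to 23.2%.

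Between Jersey and Holstein, small RNA models were higher in Jersey almost throughout. Of the 139 detected members, 131 were higher in Jersey by any amount and 5 were lower. At a difference of at least 2-fold in FPKM + 1, 104 were higher (74.8%, against 7.99% of all 15284 models compared) and 4 lower (2.88%, against 4.7%). The median log2 ratio of FPKM + 1 was 2.25 over the members and 0.00 over all models. These values include 47 members above 0 in Jersey and listed at 0 in Holstein, and 3 the reverse. The 37 members detected in Jersey alone could only be higher there, so this part was fixed in advance. For the 86 members above 0 in both libraries no added constant is needed. The ratio was at least 2 in 57 (66.3%, against 2.96% of all models above 0 in both) and at most 1/2 in 1 (1.16%, against 1.88%). Their median ratio was 2.63 with quartiles of 1.70 and 4.81, against a median of 1.01 over all models. The 817 other models with short unshared spans, in which the same lengths occur, had 193 higher and 121 lower and a median ratio of 1.01 where both were above 0.

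Between Cholistani and Holstein, members were spread to both sides. At least 2-fold in FPKM + 1, 38 were higher in Cholistani (27.3%, against 19.7% of all models) and 39 lower (28.1%, against 13.7%), and the median log2 ratio was 0.00 over members and 0.15 over all models. Where both were above 0, in 60 members, 25 had a ratio of at least 2 (41.7%, against 14.2%). In 10 it was at most 1/2 (16.7%, against 9.17%), and the median was 1.56. The other models with short unshared spans were near this on the upper side. Of 344 above 0 in both, 35.5% had a ratio of at least 2 and 5.52% of at most 1/2, with a median of 1.52. A further 29 members were above 0 in Holstein and listed at 0 in Cholistani, and 13 the reverse. With each library rescaled to the mean FPKM sum, the ratios of these 60 members turned from 39 above 1 and 21 below to 27 above and 33 below, with a median of 0.98, so a Cholistani direction near 1 depends on the scale. The Jersey excess over Holstein did not, with 83 of 86 ratios above 1 and a median of 2.49. Between Cholistani and Jersey, 17 members were higher in Cholistani (12.2%, against 17.2% of all models) and 94 lower (67.6%, against 14.2%). The median log2 ratio was -3.10 against 0.12 over all models. Of the 139 members, 63 were above 0 in Jersey and listed at 0 in Cholistani, and 3 the reverse. The 37 detected in Jersey alone could only be lower in Cholistani, so this part was fixed in advance. Among the 70 above 0 in both, the ratio was at least 2 in 14 (against 12.6%) and at most 1/2 in 31 (against 8.12%), with a median of 0.54. The 3 comparisons share libraries, so they are not separate evidence of the Jersey level. Of the 60 members above 0 in all 3 libraries, 40 were highest in Jersey, 19 in Cholistani and 1 in Holstein (47, 12 and 1 after rescaling), whereas among all 12204 models above 0 in the 3 libraries 22.2% were highest in Jersey and 51.9% in Cholistani.

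**Figure D3:**
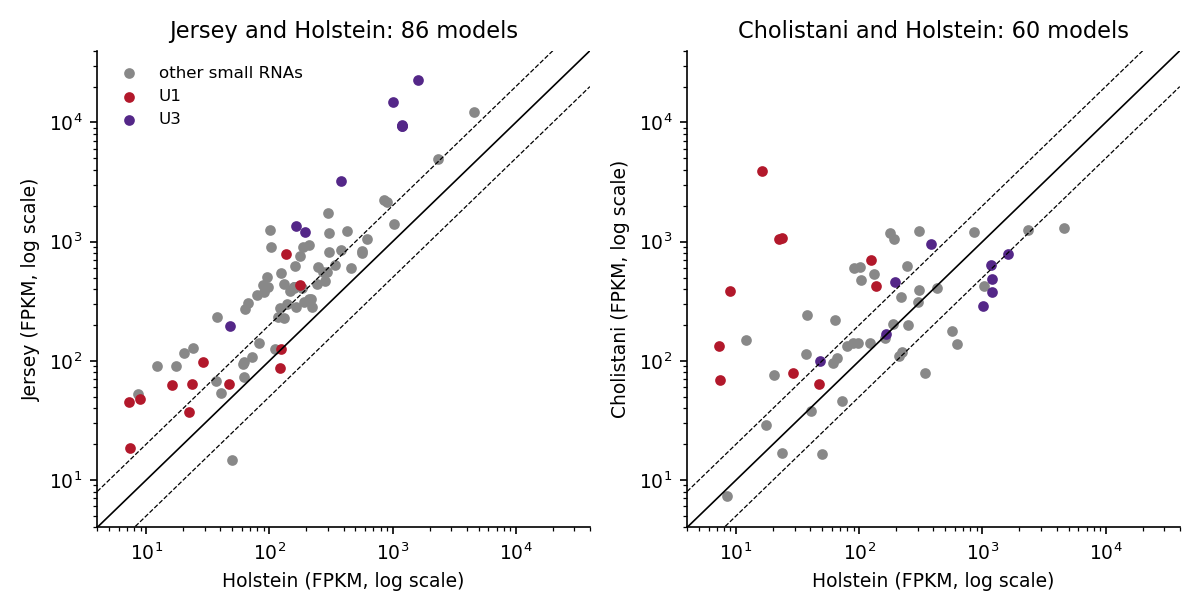
Each point is 1 small RNA model above 0 FPKM in both libraries, on log axes, with a solid line at equal values and dashed lines at 2-fold differences. On the left 84 of 86 points lie above the solid line, with U3 at the top, and on the right all U1 points lie above it (9 of 10 if rescaled) and 5 of the 9 U3 points below it.

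U1 snRNA, which recognizes the 5′ splice site, set the Cholistani library apart. Positions are those of the bovine assembly btau4.0. The U1 model at chr3:23069504-23069667 had 16.3, 62.7 and 3950 FPKM in the Holstein, Jersey and Cholistani libraries. That is a ratio of 242 between Cholistani and Holstein and made it the most abundant member of the Cholistani library. Another U1 model of the same group, at chr3:23091110-23091273, had 23.7, 64.1 and 1069 FPKM, and one at chr3:23064731-23064894 had 8.92, 47.7 and 386.

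Of 4 detected U1 models in a group on chromosome 21, 2 were likewise highest in Cholistani and 2 were listed at 0 there. The model at chr21:45749873-45750036 had 22.2, 36.9 and 1062 FPKM in the Holstein, Jersey and Cholistani libraries, and the one at chr21:45784498-45784661 had 125, 127 and 703. All 10 U1 models above 0 in both Holstein and Cholistani were higher in Cholistani, by ratios of 1.35 to 242 with a median of 13.1, and after rescaling 9 of the 10 were, with a median of 8.21. Over all 17 detected U1 models, 7 were lower in Cholistani than in Jersey, 5 of them at 0. Among these were the model at chr21:45764965-45765129, with 176, 431 and 0 FPKM, and the one at chr21:45778053-45778211, with 0, 284 and 0. The model at chr19:14335562-14335722 had 122, 87.7 and 0, which made it 1 of the few small RNA models lower in Jersey than in Holstein. Summed over all 70 models, U1 had 722, 2487 and 8001 FPKM. Many U1 copies are near-identical, and the authors kept reads that aligned to several places but discarded those beyond a set number of places. The division among copies is therefore uncertain, and the part of discarded reads in the models listed at 0 was not tested.

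U2 snRNA, which pairs with the branch point, was detected in the same 10 models in each library. It lay mainly in a tandem group of 12 models at chr19:44607316-44743660, of which 9 were above 0. The sum over this group was 1312, 4783 and 3439 FPKM in the Holstein, Jersey and Cholistani libraries. Its most abundant copy, at chr19:44673568-44673758, had 304, 822 and 1219 FPKM, and the next, at chr19:44677142-44677332, had 103, 899 and 480. As deposited, neighbouring copies of 191 bases thus differed in which of Jersey and Cholistani was higher. This depended on the scale, as 4 of the 10 U2 models were higher in Cholistani as deposited and 1 after rescaling. Over the 10 U2 models the median ratio was 4.21 between Jersey and Holstein and 2.06 for Cholistani over Holstein (1.29 after rescaling). For Cholistani over Jersey it was 0.65 (0.43 after rescaling).

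The other snRNAs were represented by few copies. U4, which holds U6 inactive before splicing, was led by the model at chr17:65896286-65896426, with 307, 1191 and 391 FPKM in the Holstein, Jersey and Cholistani libraries. U5, which aligns the exons, was detected in 4 of 24 models and in Jersey alone, at 1157 FPKM at chr3:108146898-108147013, 507 at chr3:108058783-108058899, 406 at chr16:38514884-38514999 and 237 at chr10:6608681-6608796. All 4 spans were 116 or 117 bases. U6, part of the catalytic core, had 1 model at 237 FPKM in Holstein and 0 in the other libraries, whose listed span on chromosome 5 was shared with lysozyme models. Its 3 models above 0 in Jersey were between 24.0 and 44.0 FPKM, and none of the 888 was above 0 in Cholistani.

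Among minor spliceosomal snRNAs, the 1 model of U4atac was listed at 0 throughout. The other minor snRNAs were detected in 1 model each. U11, which takes the place of U1 there, had 425, 1238 and 405 FPKM in the Holstein, Jersey and Cholistani libraries, at chr2:128973101-128973233. U6atac had 101, 1264 and 617 FPKM on a span shared with other models. U12, the counterpart of U2, had 0, 149 and 361 FPKM at chr5:120629286-120629435. All 3 were higher in Jersey than in Holstein, and U12 was the 1 that was higher in Cholistani than in Jersey.

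**Figure D4:**
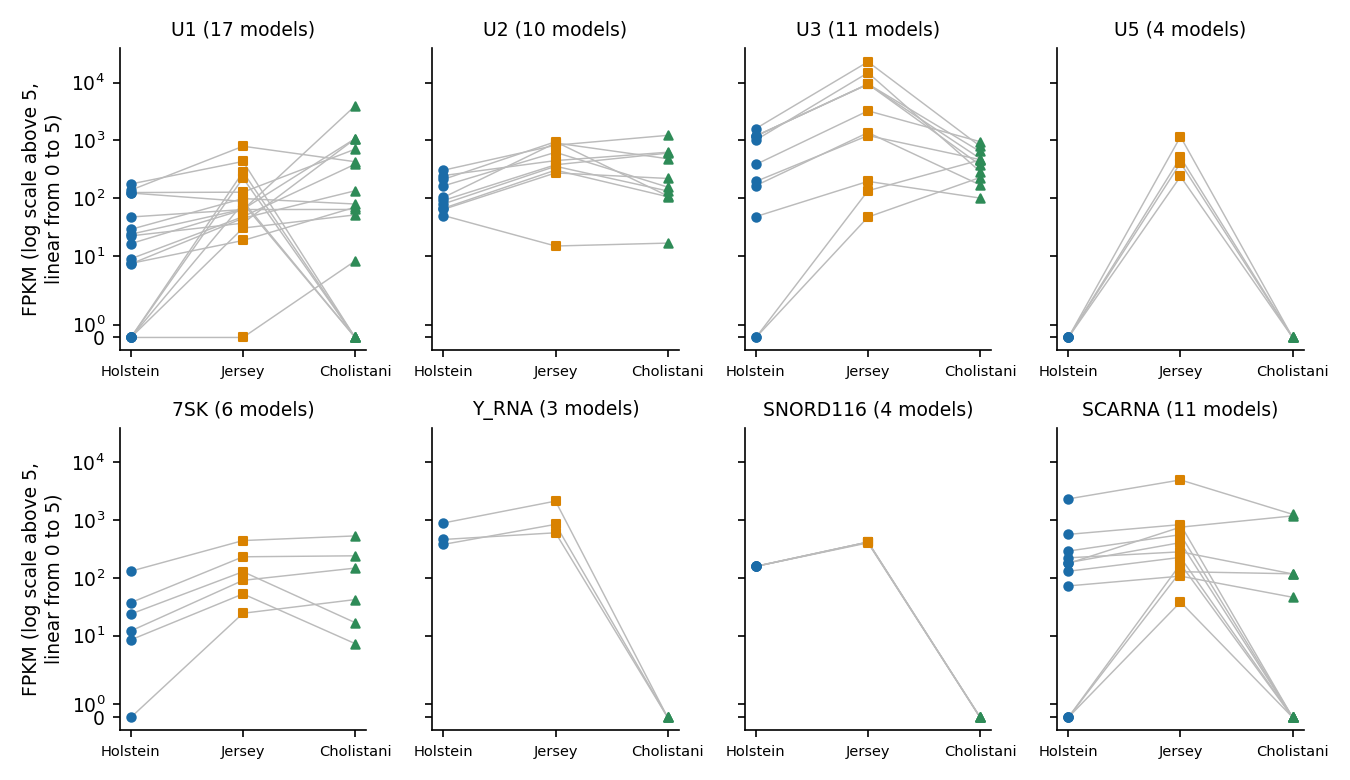
Each line joins the FPKM of 1 model in the 3 libraries, on an axis that is linear from 0 to 5 and logarithmic above, for 8 families of detected models. All U5 lines and 9 of 11 U3 lines peak in Jersey, several U1 lines climb to Cholistani, and the Y RNA and SNORD116 lines end at 0 in Cholistani.

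7SK RNA had nearby values in Jersey and Cholistani and lower ones in Holstein for its leading copies. The model at chr23:25756611-25756941 had 131, 444 and 535 FPKM in the Holstein, Jersey and Cholistani libraries. The one at chr22:46105083-46105386 had 37.5, 233 and 242 FPKM. All 5 models above 0 in both Holstein and Jersey were higher in Jersey, by a median ratio of 6.20. Cholistani was above Jersey in 4 of the 6 models, and in 2 of them after rescaling. Summed over its models, 7SK had 213, 974 and 991 FPKM. RNase P RNA, the catalytic part of the enzyme that trims tRNA precursors, was highest in Cholistani, with 192, 314 and 1060 FPKM at chr10:26170610-26170942. RNase MRP RNA, which acts in rRNA processing, had 121, 277 and 141 FPKM.

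Y RNAs, which bind the Ro60 protein, were listed at 0 throughout in Cholistani. The 3 detected models lay within a group of 4 on chromosome 4. The model at chr4:116490278-116490389 had 895, 2139.5 and 0 FPKM in the Holstein, Jersey and Cholistani libraries. The models at chr4:116485910-116486011 and chr4:116466144-116466239 had 381, 846 and 0 FPKM and 464, 605 and 0 FPKM. Their spans ran from 96 to 112 bases. RO60, the gene of the Ro60 protein, had 111, 93.2 and 44.3 FPKM.

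Ribosomal 5S RNA, part of the large ribosomal subunit, was above 0 in 5 of 337 models. The model that shared its span with XPC, a DNA repair gene, had 299, 1755 and 309 FPKM in the Holstein, Jersey and Cholistani libraries. A model at chr4:116621970-116622090 had 302 FPKM in Cholistani and was listed at 0 in the others. The remaining 3 of the 5 detected 5S models, at 74.9 to 187 FPKM, were above 0 in Jersey alone.

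U3, the box C/D snoRNA that helps to cut the rRNA precursor, carried the largest part of the Jersey signal. Its 33 models, 11 of them above 0, summed to 6964, 71988.5 and 4941 FPKM in the Holstein, Jersey and Cholistani libraries, and made up 1.14% of the FPKM of the whole Jersey library. The leading model had 1600, 22851 and 791 FPKM. It was 1 of 7 U3 models listed with the same span, chr19:8734352-8883076, which 14 models shared. The model at chr11:76942772-76942901, which shared its span with no other, had 1013, 14771 and 288 FPKM.

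All 9 U3 models above 0 in both libraries were higher in Jersey than in Holstein, with a median ratio of 7.98, quartiles of 7.87 and 8.46 and a range of 4.07 to 14.6. The copy at chr27:18723915-18724129 had 1184, 9449 and 641 FPKM in the Holstein, Jersey and Cholistani libraries, close to 2 copies on the chromosome 19 span at 1188 and 1190 FPKM in Holstein and 9357 and 9379 in Jersey. Of the 9 models, 6 were listed on the chromosome 19 span. As for U1, the division of reads among copies is uncertain, so the 9 are not separate measurements. Between Cholistani and Jersey the median U3 ratio was 0.12, but 2 of 11 copies went the other way. The copy at chr20:68182310-68182460 had 0, 134 and 456 FPKM. With U3 left out, an alternative chosen after seeing the data, 93 members were still at least 2-fold higher in Jersey than in Holstein and 4 lower, and the median ratio where both were above 0 was 2.50.

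Other box C/D snoRNAs had the same order of Jersey and Holstein. The model of snoU13, an rRNA processing snoRNA, had 4606, 12359 and 1299 FPKM in the Holstein, Jersey and Cholistani libraries. U8, which acts on the precursor of the large ribosomal subunit, had 852, 2224 and 1200 FPKM at chr19:28364601-28364736. All 13 detected box C/D models other than U3 were higher in Jersey than in Holstein, 12 of them at least 2-fold, and the 7 above 0 in both had ratios of 1.85 to 2.68 with a median of 2.63. With U3 included, 24 of 24 were higher and the median over 16 was 5.03, and leaving U3 out of this class was chosen after seeing the data. Between Cholistani and Holstein the 12 box C/D models above 0 in both, U3 included, had a median ratio of 0.75, with 6 on each side of 1 and, after rescaling, 4 above and 8 below. SNORD116, a family in the imprinted Prader-Willi region, had 4 detected copies of 92 bases in a group of 10 at the start of chromosome 21. In Holstein all 4 were at 159 FPKM, in Jersey 3 were at 418 and 1 at 405.5, and in Cholistani all 4 were listed at 0. The values of 3 copies were identical in each library, so they are not 4 separate measurements. SNORD22, another family, was highest in Cholistani in 2 of its 4 detected copies, with 0, 75.1 and 367 FPKM at chr29:42843612-42843737 and 36.6, 67.7 and 114 FPKM at chr29:30760586-30760711.

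Box H/ACA snoRNAs were detected in Jersey more often than in the other libraries, in 35 models against 19 in Holstein and 12 in Cholistani. SNORA12 led with 1024, 1420 and 428 FPKM in the Holstein, Jersey and Cholistani libraries. SNORA11, at chr19:12178802-12178931, had 620, 1048 and 139 FPKM and SNORA79, at chr10:26181974-26182121, had 568, 801 and 179. The 18 models above 0 in both were all higher in Jersey than in Holstein, with a median ratio of 1.70, beside 2.63 for box C/D without U3. In Cholistani against Holstein the median ratio was 0.58 over 8 models, of which 3 were higher as deposited and 0 after rescaling. Among the models highest in Cholistani were ACA64, with 0, 224 and 562 FPKM at chr25:2004849-2004975, and SNORA20, with 0, 209 and 479 FPKM at chr4:61509550-61509679. SNORA73 at chr2:129082254-129082457 was above 0 in Cholistani alone, at 93.6 FPKM, and SNORA70 at chr5:119965806-119965940 in Holstein alone, at 62.0 FPKM.

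The scaRNAs showed both orders in neighbouring models of chromosome 24. SCARNA18, at chr24:51317735-51317817, had 2338, 4975 and 1263 FPKM in the Holstein, Jersey and Cholistani libraries. SCARNA17, at chr24:51317885-51318027, had 179, 757 and 1186 FPKM. SCARNA18 was thus lowest and SCARNA17 highest in Cholistani. All 11 detected models named SCARNA were higher in Jersey than in Holstein, with a median ratio of 1.83 in the 8 above 0 in both. In Cholistani 6 of the 11 were listed at 0. SCARNA14, the most abundant of those 6, had 568, 838 and 0 FPKM. Of the models with sno names that were not sorted by class, snoU6-77 had 148, 387 and 0 FPKM, snoU109 139, 300.3 and 0, and snoU89 61.6, 93.2 and 95.7. The 1 model of this group above 0 in Holstein alone was a copy of snoU2_19, at 46.0 FPKM. The 2 detected miRNA models, bta-mir-220c-1 at 8.57 and bta-mir-220c-2 at 9.97 FPKM, were above 0 in Jersey alone and shared their span with a tubulin gene at 793 to 1148 FPKM.

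Many snoRNA, scaRNA and miRNA genes lie in introns of other genes, so the members were set beside the models that shared their listed span. A shared span covers the whole locus, so the place of the small RNA inside it is not known from the table, and neither the library's strand nor which model a read came from is given in the sources used here. Reads of a small RNA and of a model over it may thus not be told apart. Of 1104 members on a shared span, 58 were above 0 (5.25%), against 81 of 1786 on an unshared span (4.54%). Where the other model, taken as the most abundant on the span, was above 0, 55 of 873 members were detected (6.30%), and where it was at 0, 3 of 231 (1.30%). With another model over 1000 FPKM on average 15 of 122 were detected (12.3%). This differed between classes, with 7 of 29 box H/ACA, 1 of 44 box C/D, 2 of 2 scaRNA and 0 of 15 miRNA models in such highly expressed loci. On any span the shares of these classes, in this order, were 9.61%, 8.08%, 37.9% and 0.393%. Their median unshared spans were 132, 75, 137 and 82 bases, so class and length cannot be told apart here.

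The models on the same span did not differ between Jersey and Holstein as the small RNAs did. Of the 58 detected members, 47 were at least 2-fold higher in Jersey and 1 lower, while the most abundant other model on the span was 2-fold higher for 7 and lower for 0. Those 7 members shared 1 span and so 1 partner, and without them 40 of 51 members were higher and 1 lower, against 0 and 0 partners. For the 34 members above 0 in both libraries the median log2 ratio of FPKM + 1 was 1.87, and that of the other model 0.15. Between Cholistani and Jersey, 1 member was higher and 48 were lower, of which 34 were listed at 0 in Cholistani, while the other model was higher for 10 and lower for 3 (3 and 3 without the 7). The 23 members above 0 in both had a median of -1.55, and the other model 0.36. Between Cholistani and Holstein, 9 members were higher and 19 lower, and the other model was higher for 11 and lower for 2 (4 and 2 without the 7).

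**Figure D5:**
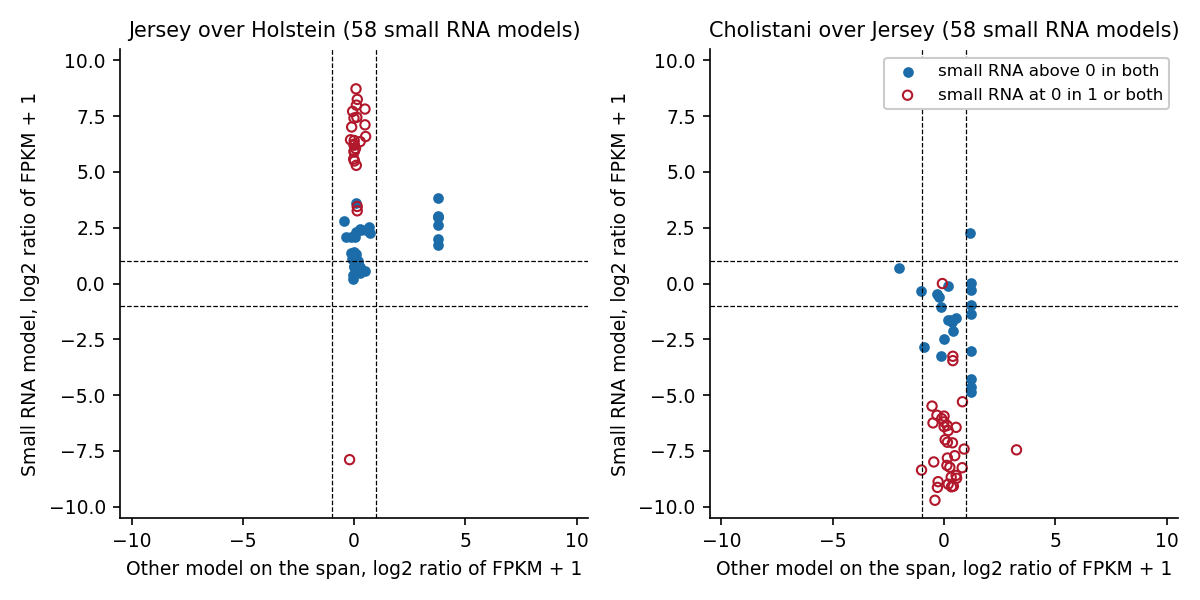
Each point is 1 detected small RNA model on a shared span, with the log2 ratio of FPKM + 1 of the most abundant other model on that span on the horizontal axis and its own on the vertical axis, and dashed lines at 2-fold. Small RNA models lie mostly above the upper line between Jersey and Holstein and below the lower line between Cholistani and Jersey. Most other models stay between the vertical lines. The exceptions are a column of 7 points on 1 span at the right of the first panel and, in the second panel, 10 points to the right, those 7 among them, and 3 to the left.

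SNORA21 shared its span with the ribosomal protein gene RPL23 and had 270, 551 and 0 FPKM in the Holstein, Jersey and Cholistani libraries, while RPL23 had 16358, 18565 and 23400. SNORA7, with RPL32, had 82.6, 139.8 and 0 FPKM against 13680, 16256 and 21121. SNORA42, with the actin regulator gene ARPC2, had 0, 422 and 0 FPKM against 4730, 5007 and 7391. In these 3 loci the small RNA was listed at 0 in Cholistani, in which the protein-coding model was highest as deposited and lowest after rescaling. SNORA41, with the elongation factor gene EEF1B2, had 282, 469.9 and 0 FPKM against 2086, 2101 and 1745. SCARNA14, with TIPIN, a replication fork gene at 95.6, 134 and 101 FPKM, was itself above the coding model in Holstein and Jersey. Of the small RNA models above 0 on a shared span, 17 of 35 in Holstein, 32 of 57 in Jersey and 17 of 23 in Cholistani had a higher FPKM than the other model. In each library these counts include the 7 members on 1 span, whose common partner had 0, 12.5 and 30.5 FPKM.

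Proteins that work with these RNAs and host genes that hold snoRNAs in their introns were read from lists of 106 genes, of which 66 were found by name and 64 were above 0. These were 37 partner proteins and 27 host genes. Between Jersey and Holstein, 0 of the 64 were 2-fold higher (against 7.99% of all models) and 0 lower (against 4.7%), and the median log2 ratio was 0.09 over partner proteins and 0.12 over host genes. Between Cholistani and Holstein, 8 of the 37 partner proteins were higher (21.6%, against 19.7% of all models) and 5 lower (13.5%, against 13.7%), with a median of 0.68. Between Cholistani and Jersey, 5 were higher (13.5%, against 17.2%) and 4 lower (10.8%, against 14.2%), with a median of 0.47. The shares were thus near those of all models or below them. After rescaling 1 was higher (2.70%) and 7 lower (18.9%) in each, with medians of 0.01 and -0.13. Of all 15284 models, rescaling left 1772 higher and 4205 lower in Cholistani than in Holstein. Against Jersey 1587 were higher and 4011 lower. The balance thus depends on the scale, and the values below are in FPKM as deposited.

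Of 11 measured spliceosomal snRNP proteins, 5 were higher in Cholistani than in Holstein (45.5%, against 19.7% of all models) and 0 lower, and after rescaling 0 were higher and 0 lower. SNRPG, of the ring of Sm proteins on U1, U2, U4 and U5, had 655, 684 and 1979 FPKM in the Holstein, Jersey and Cholistani libraries, and LSM7, of the ring on U6, had 520, 547 and 1528. SNRPD2, the most abundant, had 1779, 1930 and 4200 FPKM. In the 7SK particle HEXIM1, the inhibitor of P-TEFb that 7SK carries, had 268, 309 and 1046 FPKM, while HEXIM2, with 90.8, 79.8 and 38.9, and CCNT1, a cyclin of P-TEFb with 85.0, 68.4 and 37.5, were lower in Cholistani. Of 6 measured RNase P and MRP proteins 1 was higher in Cholistani than in Holstein, RPP21, with 70.5, 109 and 151 FPKM. Of 7 miRNA processing proteins 2 were lower, AGO1, with 57.5, 53.7 and 18.0 FPKM, and AGO4, with 172, 157 and 64.6. Of 4 signal recognition particle proteins 1 was higher, SRP19, with 422, 504 and 886 FPKM, and of the Ro and La proteins RO60 was lower. SNU13, the measured box C/D protein, had 973, 1035 and 1654 FPKM and NHP2, the measured box H/ACA protein, had 273, 253 and 465, both under 2-fold. Of 27 measured snoRNA host genes 3 were higher in Cholistani than in Holstein (11.1%, against 19.7% of all models). Another 2 were lower (7.41%, against 13.7%), so both shares were below those of all models. After rescaling 0 were higher and 3 lower (11.1%), beside 1772 and 4205 of all 15284 models. The farthest on each side were RPL12 at 9039, 9575 and 24737 FPKM and RPL37 at 9244, 11311 and 3895.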

How the data were processed

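mRNA-Seq libraries of leukocytes from pooled blood, 1 per breed, were analysed. Per the labels and methods, the authors aligned reads to btau4.0 with TopHat (1.0.14) and Bowtie (0.12.7) and estimated expression with Cufflinks (0.9.3). The deposited values are FPKM, to which the authors had applied upper-quartile normalization and a sequence bias correction. Values were used unchanged. To each listed start 1 was added, on the reading that the table counts from 0.

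Members were found by name, and protein-coding names beginning ACA (7 models) were left out. Models above 0 in any library with a value in all 3 were compared as log2(FPKM + 1), with a pseudocount of 1 and a fold of 2, which understates differences of low models, and as plain ratios where both were above 0, with medians taken on the log scale. Tables were made with Python 3.11.15, pandas 2.3.3 and numpy 2.4.6. The scripts were tested on simulated data.

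Members, lists and markers were chosen with earlier results of these data known. Named per RNA class were the 3 most abundant members, the 3 highest and lowest in each comparison with a higher value of at least 50 FPKM, the 3 most abundant found in 1 library only, the models sharing their span, and per protein list the 2 genes farthest from 0 and the most abundant. Models named beyond this rule were chosen after their values were seen. Lists and markers were matched by symbol or protein entry name, and genes with only an accession were not matched. Alternatives covered pseudocount, detection limit, scaling, span sharing and membership.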

Additional observations from a re-analysis of the deposited data

How the results depend on the processing

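No paired analysis was possible because each breed has 1 library and no result comes from a test. Each result was recomputed under other settings. Rescaling turned the side of 1 on which most ratios of Cholistani over Holstein lay for the 60 members above 0 in both (27 above and 33 below) and the balance of the protein lists. The following values moved by more than 1.5 times for a count or by more than 0.1 for a median log2 ratio, and the cause of each move was not tested except where the setting itself leaves out models. With members on an unshared span only, 81 models were detected (54 in Holstein, 76 in Jersey), 57 were at least 2-fold higher in Jersey than in Holstein, 20 were lower in Cholistani than in Holstein and 46 lower in Cholistani than in Jersey, with medians of 1.93 (Jersey over Holstein) and -1.61 (Cholistani over Jersey). With models above 0 in both libraries only, the counts were 57 higher and 1 lower (Jersey over Holstein), 25 higher and 10 lower (Cholistani over Holstein) and 31 lower (Cholistani over Jersey), with medians of 1.40, 0.65 and -0.89. Without U3 the median was 2.09 between Jersey and Holstein. This setting, the one with both above 0 and the detection counts on unshared spans were chosen after seeing the data. A pseudocount of 10 FPKM gave medians of 1.92 (Jersey over Holstein) and -2.37 (Cholistani over Jersey). One model per location gave 2.15 and -2.99, and every name beginning ACA gave 2.13 and -2.88. Centring on the median of all models gave -0.18 (Cholistani over Holstein) and -3.25 (Cholistani over Jersey), and rescaling to the mean FPKM sum gave -3.60 (Cholistani over Jersey). Rescaling moved the median of all models between Cholistani and Holstein from 0.15 to -0.43, and the counts over all models from 3006 higher and 2099 lower to 1772 higher and 4205 lower. Depth per model is unknown, so a value of 0 sets no upper limit.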
